A study of Rattus norvegicus with 16 samples.

Results

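Genes private to the Dark Agouti (DA) rat were sought in messenger RNA of the proximal femur, measured on 16 expression arrays. A gene was called private when the signals of all 4 DA arrays lay above, or all lay below, each of the 12 signals of the other 3 inbred strains. The comparison strains were Fischer 344 (F344), Lewis (LEW) and Copenhagen 2331 (COP), each with 4 arrays. Of 10548 genes tested, 233 met this rule, 124 of them higher and 109 lower in DA. Every group was a plain inbred strain with no treatment named, 4 weeks old, and each array took labelled cRNA made from 5 ug of total RNA. The series was built around a locus for skeletal traits on chromosome 4 found in a cross of F344 with LEW, so DA stands outside that cross. The labels do not give the sex of the animals or say that replicates came from separate animals. The p-values below therefore measure the spread between these arrays, which may be partly technical.

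An inbred strain carries the same alleles in nearly all its animals, and each strain has fixed a different set of them. DA rats are widely used because they readily develop experimentally induced arthritis and autoimmune encephalomyelitis. The proximal femur of a growing rat holds bone-forming and bone-resorbing cells, growth plate and joint cartilage, attached muscle, fat, vessels and blood-forming marrow. An array probe set is a group of short oligonucleotides designed against 1 reference sequence. A lower level of a transcript and a strain variant under its probes therefore cannot be told apart from the signal alone.

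Signals were compared on the log2 scale. The difference reported for a gene is the DA mean minus the average of the other 3 strain means, from a limma fit to all 16 arrays (n = 4 for DA and 12 for the others). A gene was called when its p-value, adjusted over all 18625 probe sets kept, was under 0.05. The tissue label was checked against marker genes. Bglap, which encodes osteocalcin, read 50520 to 63220 in DA and 48770 to 58170 in the others, and the bone, cartilage, osteoclast, fat, muscle, red cell and platelet markers Col1a1, Ibsp, Col2a1, Acp5, Adipoq, Acta1, Alas2 and Pf4 were all measured well above the filter. The osteocyte marker Sost, the osteoclast marker Calcr and the T cell marker Cd3e were below the filter, a mean signal of 174. Median signals lay between 303 and 325 on all 16 arrays, and no columns were identical. Arrays of DA correlated with each other at 0.982 to 0.983 across probe sets and with other strains at 0.962 to 0.972. The ratio of 3' to 5' signal for Gapdh was 1.01 to 1.04 in DA and 0.97 to 1.06 in the others, so it did not set DA apart.

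The private set mixed large with slight differences and was smaller than the same set counted for each other strain. Of the genes tested 2.21% were private to DA, 1.18% higher and 1.03% lower, against 555 private to F344 (5.26%), 274 to LEW (2.6%) and 443 to COP (4.2%). In DA minus the mean of the others, 12.2% of genes were called, 669 higher (6.34%) and 615 lower (5.83%). Over kept probe sets, named or not, 430 of 18625 were private to DA (2.31%), 207 higher (1.11%) and 223 lower (1.2%), and 2268 were called (12.2%), 1131 higher (6.07%) and 1137 lower (6.1%). Private probe sets that also differed from each single strain at the same threshold numbered 125 higher (0.671%) and 153 lower (0.821%), and private genes of that kind 147 (1.39% of genes tested), 75 higher and 72 lower. The rule and the test read the same arrays, so nothing is drawn from the 221 private genes that were also called, and the adjusted p-values of private genes given below are descriptions. In 178 the distance from DA to the nearest strain was larger than the whole range of the other 3 strain means. The nearest strain was F344 for 76, LEW for 71 and COP for 86. The median absolute log2 difference was 0.43 over private genes and 0.10 over all genes tested, and the median standard error of a private gene was 0.0735. An absolute difference of 1 or more was found in 28 private genes, 14 in each direction, and in 53 of all genes tested (0.502%). A further 73 lay between 0.5 and 1, 93 between 0.25 and 0.5, and 39 below 0.25. The gap between the nearest DA array and the nearest other array was 0.5 or more in 17 genes. The rule leans on single arrays. Without DA replicate 1 the private genes numbered 217 higher and 200 lower, and without DA replicate 4 the lower ones numbered 175. In bulk tissue such as this, fewer cells of a type and less RNA per cell cannot be told apart.

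Just inside the rule stood E2f2 and Nup35. E2f2, a transcription factor of the cell cycle that is abundant in maturing red cells, read 17472, 17293, 17957 and 15983 in DA against a highest other signal of 15973, although LEW had 3413 to 4454 and set most of its log2 difference of 0.90. Nup35, a nuclear pore protein, read 2275 to 2336 in DA and 1903 to 2272 elsewhere. Just outside stood Sgk3 and Slc31a1, a kinase and a copper importer, whose highest DA signals, 1072.1 and 2338.2, passed the lowest other signals, 1072 and 2337.1, by about 1 unit of signal or less. The differences of these outside genes, -0.58 and -0.24, were of the size of those of many members.

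**Figure D1:**
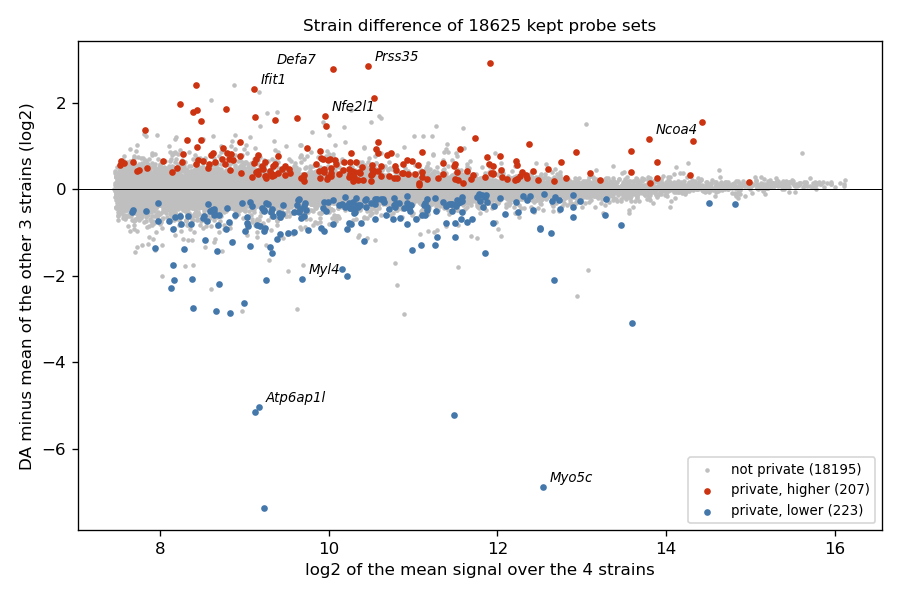
Each point is 1 of 18625 kept probe sets, with the log2 of its mean signal over the 4 strains across and DA minus the mean of the other 3 strains (log2) upward; probe sets private and higher (207) and private and lower (223) are coloured and the rest are grey. The median private gene differed by 0.43, while Myo5c at -6.90 and Atp6ap1l at -5.04 lie far below the other private genes; the unlabelled points at like depth are the second Myo5c probe set and probe sets with no gene symbol.

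Near-absent signal in DA marked Myo5c and Atp6ap1l. Myo5c encodes a class V myosin, a motor that carries secretory cargo along actin. Its signals were 78.1, 54.4, 51.2 and 75.5 in the 4 DA arrays and lay between 5294 and 11799 with a median of 7539.5 in the 12 others. All 4 DA signals were below the filter that separated dim from kept probe sets, and the groups lay far apart. The log2 difference was -6.90 (SE 0.095, adjusted p = 1.66e-21 by limma), 119-fold, and the nearest strain, F344, was still 86.1-fold higher. With a pseudocount of 19.3 added to every signal the difference was -6.52, so the fold depends somewhat on how signals this dim are treated. A second Myo5c probe set gave 133, 71.8, 96 and 111 in DA and 3067 to 5007 elsewhere, a log2 difference of -5.22 (SE 0.11).

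Atp6ap1l, named for its likeness to an accessory subunit of the proton pump of acidic vesicles, read 16.4, 30.1, 20.8 and 25.5 in DA. The other arrays lay between 484 and 952 with a median of 748. Again no DA array came near any other array, and the log2 difference was -5.04 (SE 0.15, adjusted p = 5.07e-16 by limma), or -4.18 with the pseudocount. Unlike Myo5c, Atp6ap1l had no other kept probe set. Among the named genes higher in DA the largest difference was 7.21-fold, for Prss35. In all, 8 private genes had a DA mean under the filter while each other strain was above it. The opposite pattern, a DA mean at or above the filter with each other strain under it, was found in 0 private genes. These counts were not tested against each other, nor was the size of gains and losses. A filter on the mean of 16 arrays, 12 of them from other strains, keeps fewer genes that are bright only in DA. Besides Myo5c and Atp6ap1l the 8 included Gpr4, Cdc42bpa, Scn2b and Afmid. The filter of 174 is a percentile of signal and not a limit of detection. Cdc42bpa, Scn2b and Afmid had DA means of 171, 172 and 167, close under it, so they were not near absent. Scn2b, a sodium channel subunit at 158 to 187 in DA and 195 to 328 elsewhere, lost its call under 4 of 24 alternative settings, and a second Afmid probe set was not called (-0.30, SE 0.15).

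The stretch of 250 bases before the transcription start of each is shown because these are the genes whose signal was nearly lost in DA. The sequences are those of the RefSeq reference assembly GRCr8, not of a DA animal. Capitals mark a CCAAT box (CCAAT, or ATTGG on the opposite strand), a TATA box (TATAAA or TTTATA) and a GC box (GGGCGG or CCGCCC), searched on both strands with no overlap between motifs found.
Myo5c promoter, chr8:84869793-84870042, plus strand: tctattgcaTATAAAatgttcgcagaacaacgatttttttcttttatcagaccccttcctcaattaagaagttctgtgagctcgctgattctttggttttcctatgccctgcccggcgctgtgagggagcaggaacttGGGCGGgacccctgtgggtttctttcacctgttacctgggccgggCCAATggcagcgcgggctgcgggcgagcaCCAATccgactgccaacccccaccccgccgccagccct
Atp6ap1l promoter, chr2:23800221-23800470, minus strand: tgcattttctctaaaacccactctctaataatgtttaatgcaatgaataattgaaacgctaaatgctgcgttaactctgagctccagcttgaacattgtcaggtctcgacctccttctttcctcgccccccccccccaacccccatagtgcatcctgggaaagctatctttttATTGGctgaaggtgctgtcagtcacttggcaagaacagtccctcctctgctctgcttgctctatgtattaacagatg
The Myo5c window held CCAAT boxes at 67 to 63 and 38 to 34 bases before the start, a GC box at 112 to 107 and a TATA box at 241 to 236, and its GC content was 56%. The Atp6ap1l window held 1 reversed CCAAT box at 77 to 73 bases before the start, with a GC content of 46%. Of 33469 windows of this length, 34% held a CCAAT box, 12.9% a TATA box and 30.5% a GC box, and the median GC content was 51.2%. A match of letters is a description only.

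Among the other genes lower in DA, several encode parts of the contractile and filament system. Myl4, an alkali light chain of myosin used in the atrium and in embryonic muscle, read 359, 184, 175 and 265 in DA and between 752 and 1250.1 with a median of 1069 elsewhere. Its highest DA array stayed below the lowest other array, with a log2 difference of -2.08 (SE 0.15, adjusted p = 3.52e-09 by limma). Plec, which encodes plectin, a linker of intermediate filaments, gave 1075, 955, 979 and 1151 in DA against a lowest, median and highest of 2203, 2616 and 3036. DA was less than its nearest strain by 2.26-fold and the log2 difference was -1.29 (SE 0.075, adjusted p = 1.01e-10 by limma). Sync, which encodes syncoilin, a filament protein of muscle, read 2592, 4255, 4152 and 3550.2 and 5784, 7449 and 9119 in the same order, a difference of -1.02 (SE 0.1, adjusted p = 5.45e-07 by limma), while its second probe set, also private, gave -0.45 (SE 0.075). Cdc42bpa, a kinase that acts on actin and myosin downstream of Cdc42, was dim, at 176, 139, 223 and 147 in DA and 232 to 413 elsewhere, and fell by 0.92 on the log2 scale.

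Muscle markers were counted beside these genes. Of 24 tested, Myh4 and Tnnc2 were called higher and Myh1 lower by its brightest probe set, 23 lay above 0 in the difference and the median was 0.17. Under quantile normalization none was called higher, and leaving out 1 array gave from 0 (most F344, LEW and DA arrays) to 7 (LEW replicate 1). The mean of the list, each gene taken relative to its own average, was 0.02 to 0.28 on the DA arrays and -0.50 to 0.17 on the others. Its part in these results was not tested.

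Further genes lower in DA encode receptors and a junction protein. Pira2, an activating immunoglobulin-like receptor of myeloid cells, read 201, 311, 319 and 273 in DA. The other arrays ran 545 to 953, and the log2 difference was -1.47 (SE 0.12, adjusted p = 1.71e-08 by limma). Gpr4, a receptor that senses protons, read 125, 43, 75 and 78 against 146, 345 and 636. Its DA signals were closest to those of COP, 2.67-fold away, and its standard error of 0.25 around a difference of -2.10 was wide. Cldn11, a claudin of tight junctions, read 129 to 265 in DA and 269.6 to 636 in the others, a difference of -1.17 (SE 0.17) whose groups were separated by only a few units of signal.

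Enzymes and regulators followed. Urah, which breaks down a product of uric acid, read 1058, 959, 903 and 629 in DA. COP was nearest with a mean of 1541, F344 and LEW had 2827 and 2846, and the log2 difference was -1.40 (SE 0.11, adjusted p = 1.71e-08 by limma). Eid1, an inhibitor of acetyltransferases that restrains differentiation, read 4225, 3474, 2885 and 3655 against 5599, 6806 and 7118. Here the other 3 strains lay together, within 0.06 on the log2 scale, and DA alone was lower by 0.90 (SE 0.077, adjusted p = 4.54e-08 by limma). Nhlrc3 gave 722, 842, 482 and 767 in DA and 1336 to 1721 elsewhere, a difference of -1.20 (SE 0.098, adjusted p = 2.38e-08 by limma). Bhlhe40 and Rps4y2, both on chromosome 4, are described with that chromosome.

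The genes higher in DA were led by Defa7 and Prss35. Defa7 encodes an alpha-defensin, an antimicrobial peptide, and read 2434, 3214, 3358 and 2766 in DA. The other 12 arrays lay between 274 and 684 with a median of 412, so the lowest DA array was several times the highest other array. The log2 difference was 2.78 (SE 0.14, adjusted p = 1.47e-11 by limma). Alpha-defensins are a family of close copies, and a probe set named for 1 of them can take signal from another. Prss35, which encodes a secreted protein like serine proteases, read 3698, 4108, 3702 and 4036 against 235, 533 and 1122. COP was nearest, 4.53-fold lower, and the difference was 2.85 (SE 0.2, adjusted p = 1.59e-09 by limma).

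Ifit1, an interferon-induced protein that binds foreign RNA, read 1338, 1306, 1609 and 1242 in DA and between 188 and 404 with a median of 289 in the others. All 4 DA arrays were more than 3 times the highest other array. The log2 difference of Ifit1 was 2.33 (SE 0.13, adjusted p = 1.01e-10 by limma). Lilrb2, an inhibitory receptor of leukocytes, read 1884, 1819, 1901 and 1954, a narrow band above all others at 435 to 962, with a difference of 1.47 (SE 0.08, adjusted p = 4.51e-11 by limma). Pla2g2a, a secreted phospholipase released in inflammation, was 1.9-fold higher, at 4307 to 5329 against 1992 to 3068 (log2 0.93, SE 0.085).

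Regulators of protein turnover, iron and oxidative stress were also among the genes higher in DA. Nfe2l1, a transcription factor that drives proteasome and stress genes, read 2264, 1977, 1974 and 2052 in DA and between 496 and 767 with a median of 634 elsewhere. The other strains lay within 0.27 of each other on the log2 scale, and DA stood 1.71 above their mean (SE 0.094, adjusted p = 4.73e-11 by limma). Atg4b, a protease that prepares the membrane tags of autophagy, read 2343, 2446, 2311 and 2252 against 1119, 1225 and 1314, with the other 3 means within 0.05 of each other and a difference of 0.93 (SE 0.056, adjusted p = 2.29e-10 by limma). Ncoa4, the receptor that delivers ferritin to autophagy and so frees iron, was bright, at 23049, 21832, 23299 and 28734 in DA. The others lay between 9086 and 13990 with a median of 10158, and the difference was 1.16 (SE 0.057, adjusted p = 7.89e-12 by limma). Sco1, a copper chaperone of cytochrome oxidase, rose by 0.89 (SE 0.096) and Selenbp1, a selenium-binding oxidase, by 0.86 (SE 0.084), with DA signals of 1319 to 1540.4 and 3224 to 3471. Gclc, the catalytic subunit of the enzyme that starts glutathione synthesis, read 5039, 5524, 5802 and 5048 in DA and 2689 to 4221 in the others, a difference of 0.74 (SE 0.061, adjusted p = 2.74e-08 by limma). Other glutathione and antioxidant genes did not follow it as a group. Of 40 tested, 5 were called higher, Gclc among them, and 2 lower, against 6.34% and 5.83% of all genes. Their median difference was 0.02, and Akr1b8 was lower by 0.98.

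Lrrc8b, a subunit of the anion channels that open when cells swell, read 1153, 1176, 1091 and 1196 in DA, an even level well above 301 to 419.8 elsewhere. Its log2 difference was 1.68 (SE 0.086, adjusted p = 1.40e-11 by limma). Mustn1, a small nuclear protein of developing muscle and bone, read 9056, 7351, 9162 and 9056 against 3029, 4219 and 4904. DA replicate 2 was the lowest of the 4 and still above every other array, and the difference was 1.05 (SE 0.086, adjusted p = 2.38e-08 by limma). Scd, a desaturase of fatty acid synthesis, read 4703, 6018, 5494 and 5988 in DA. The 12 others ran 871 to 4049, with COP low at a mean of 1404, so DA was 2.27-fold above the mean of the others and 1.66-fold above F344, with a log2 difference of 1.19 (SE 0.16).

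**Figure D2:**
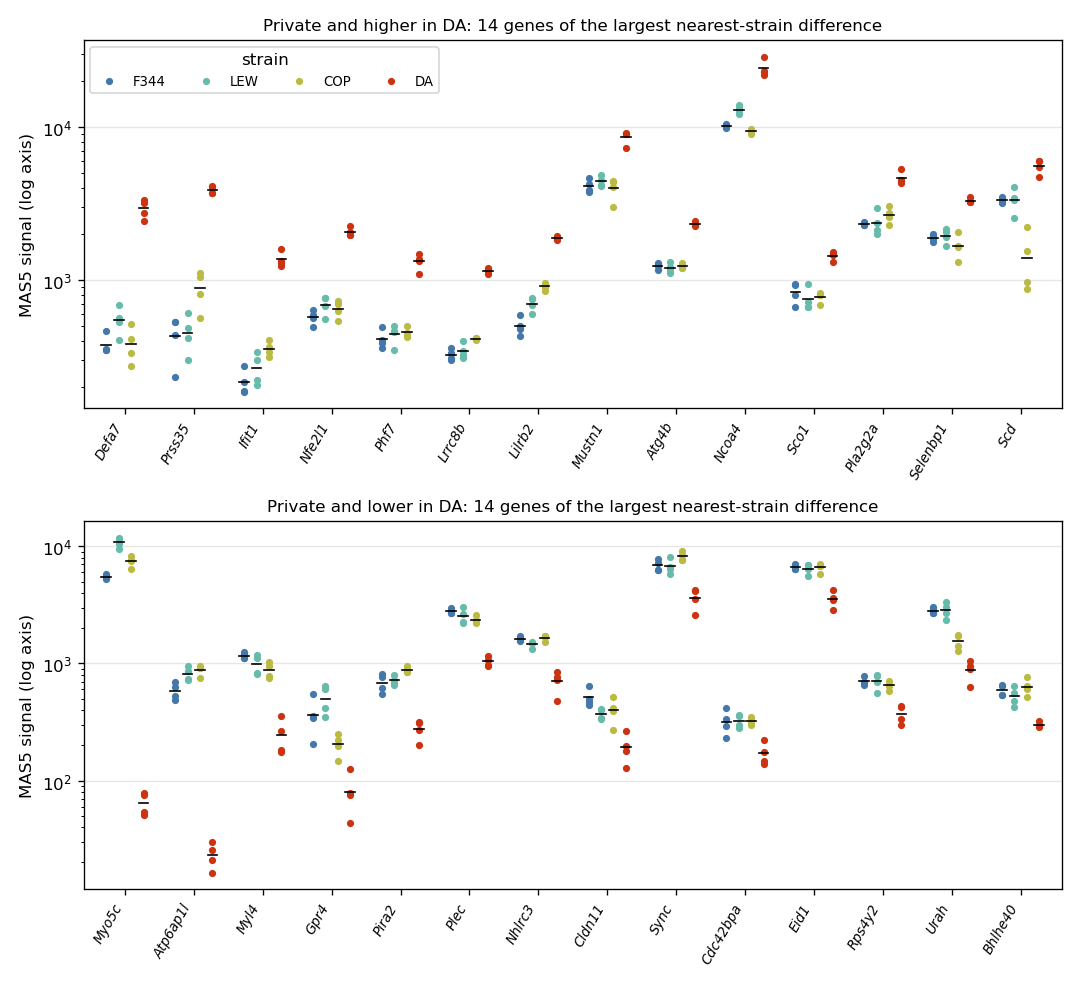
Points are the signals of single arrays (log axis) for the 14 genes higher and the 14 genes lower in DA with the largest distance from DA to the nearest strain, coloured by strain, and bars are strain means. Every DA point lies outside the range of the 12 others for each gene, by definition, and the distance runs from 86.1-fold for Myo5c to 1.66-fold for Scd.

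Some private genes were read by more than 1 probe set, which may or may not share a stretch of the transcript. Of the 233 private genes, 59 had at least 1 other kept probe set, 70 in all, and 59 of these probe sets lay on the same side. In 16 genes another probe set was itself private the same way and in 22 it was called the same way. A second probe set of Pira2 read 129.6, 61, 100.4 and 139 in DA and 445 to 866 elsewhere, a log2 difference of -2.62 (SE 0.16). For Phf7, a reader of chromatin marks studied in male germ cells, the brighter probe set gave 1104, 1346, 1494 and 1373 against 349, 449 and 504, a difference of 1.60 (SE 0.11, adjusted p = 8.43e-10 by limma), and the other gave 836, 583, 869 and 699 and a difference of 1.83. Klf5, a transcription factor of growth and fat cell formation named here after its values were seen, was higher by 0.73, 1.15 and 0.71 in its 3 probe sets. Nfe2l1 was less even. Its other probe sets gave 0.97 and 0.19, and the last, with DA at 668, 629, 682 and 701 and the others at 459 to 769, was not called.

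Calls in opposite directions came from 2 private genes, Myh1 and Rbms3. Myh1 encodes a fast heavy chain of skeletal muscle myosin. Its brightest probe set was lower in DA, at 7126, 6097, 6914 and 8701 against 10727, 12496 and 14382, a difference of -0.82 (SE 0.073, adjusted p = 8.82e-08 by limma), and 3 others were lower by 0.92, 0.60 and 0.25. The remaining one was private and higher, with 11239, 10392, 10521 and 11326 in DA and 1085 to 2287 elsewhere, a log2 difference of 2.92 (SE 0.058). Heavy chain genes are close copies, and which transcripts each probe set reads cannot be told from these signals. Myh1 is counted as lower by the rule of the brightest probe set, and its direction is uncertain. Rbms3, an RNA-binding protein, was lower by 0.43 in its brightest probe set and higher by 0.25 in the other. By the mean of all kept probe sets of a gene, 194 of the 233 genes were private the same way. Only the 59 genes with another kept probe set could change by this, because the rest have a single probe set.

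**Figure D3:**
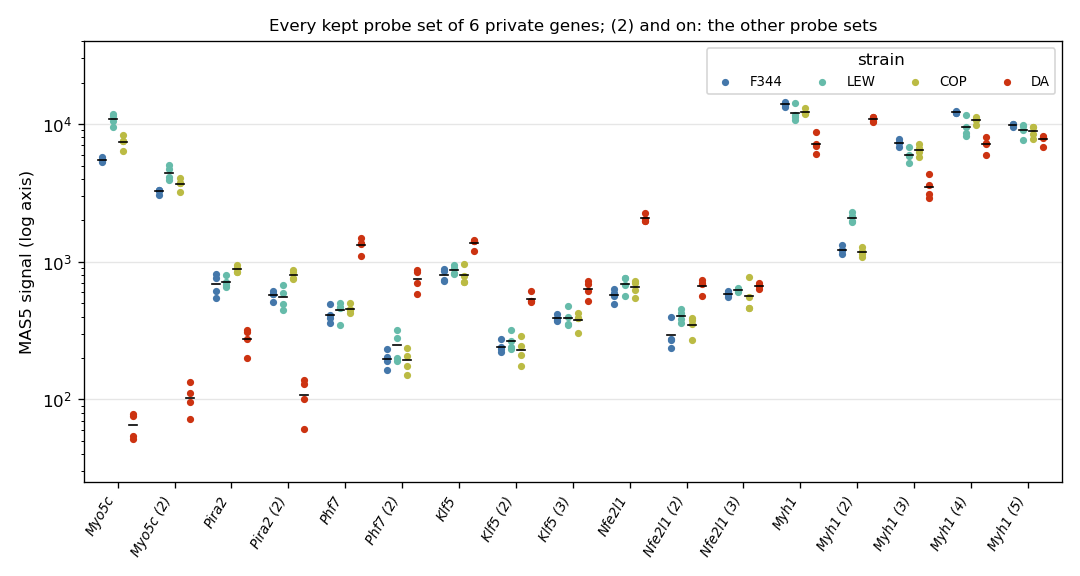
Points are array signals (log axis) for every kept probe set of Myo5c, Pira2, Phf7, Klf5, Nfe2l1 and Myh1, coloured by strain with bars at strain means; the brightest comes first and the others are numbered. The probe sets of Myo5c, Pira2, Phf7 and Klf5 place DA on 1 side, whereas the second of Myh1 has DA near 10870 and the others near 1495, opposite to its first.

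Private genes were set out by chromosome and by order along it, using a RefSeq gene table. Each autosome held between 2 and 33. As a share of genes tested it was highest on chromosome 11, 12 of 280 (4.29%), followed by chromosome 16, 10 of 302 (3.31%), and lowest on chromosome 17, 2 of 289 (0.692%). Of 10495 pairs of neighbouring tested genes, 14 were private together, 9 of them in the same direction. Longer runs, with at most 2 other tested genes between members, were found on chromosomes 2, 13, 16 and 1.

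On chromosome 16 the run held Sema3g, Phf7 and Bap1, all higher. Sema3g, a secreted guidance protein of vessels and nerves, read 1578, 1516, 1543 and 1334 in DA against 764, 951 and 1112, a difference of 0.68 (SE 0.067, adjusted p = 4.56e-07 by limma). Bap1, a deubiquitinase and tumour suppressor, read 4145, 4624, 4189.9 and 4064 in DA. Its highest other array was 4058, so the groups nearly touched, and the difference was 0.28 (SE 0.052, adjusted p = 0.000855 by limma). Mustn1 lay on one side with 9 tested genes between it and Sema3g. On the other side came Hacl1, a peroxisomal enzyme that shortens branched fatty acids, with 5 tested genes between, and then Ncoa4 after 4 more. Hacl1 went the other way, at 467 to 529.5 in DA and 680.1 to 839.9 elsewhere (log2 -0.63, SE 0.071). Defa7 is on the same chromosome, and Use1, Plat and Fbxo25 make up the other private genes there.

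Phf7 and Bap1 lie back to back, with start sites 455 bases apart on opposite strands, and their upstream windows share 46 bases. They are printed because both genes were private in the same direction. Capitals mark the motifs named above.
Phf7 promoter, chr16:6452672-6452921, minus strand: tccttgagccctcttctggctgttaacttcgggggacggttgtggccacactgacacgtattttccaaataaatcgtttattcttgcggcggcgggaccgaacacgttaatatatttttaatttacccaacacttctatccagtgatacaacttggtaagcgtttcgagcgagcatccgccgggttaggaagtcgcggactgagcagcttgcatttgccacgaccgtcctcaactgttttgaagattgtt
Bap1 promoter, chr16:6452876-6453125, plus strand: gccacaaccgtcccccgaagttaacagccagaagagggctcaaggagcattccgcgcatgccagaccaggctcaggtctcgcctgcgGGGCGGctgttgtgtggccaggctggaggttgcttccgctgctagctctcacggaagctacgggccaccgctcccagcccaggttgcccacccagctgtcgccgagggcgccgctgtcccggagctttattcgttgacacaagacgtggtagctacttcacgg
The Bap1 window held a GC box at 163 to 158 bases before the start and a GC content of 64.4%. No CCAAT, TATA or GC box was found in the Phf7 window, whose GC content was 48%. Among 395 divergent pairs of tested genes with starts at most 1000 bases apart, 2 had both genes private, Phf7 with Bap1 and Hspbap1 with Slc49a4, each pair in the same direction. In 17 pairs 1 gene was private and its partner was not. Of all genes tested 2.21% were private, and nothing is drawn from 2 pairs.

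The run on chromosome 2 surrounded Atp6ap1l and was mixed. Its neighbour Tmem167a, a small membrane protein of the secretory pathway, was lower in all 3 of its probe sets, with 7517, 7173, 7137 and 6116 in DA against 7813, 8513 and 8956 in the brightest (log2 -0.27, SE 0.051). On the other side Atg10, an enzyme of autophagy, was higher at 645 to 763 against 409 to 588 (log2 0.41, SE 0.089), and so was Zcchc9, a zinc knuckle protein, at 1653 to 1732 against 1009.7 to 1535 (log2 0.32, SE 0.073). Rps23 and Ssbp2, in between, were not private. On chromosome 13 Mrps14, of the mitochondrial ribosome, Cacybp, a partner of ubiquitin ligases, and Rabgap1l, a regulator of Rab proteins, were consecutive among the tested genes. They were higher by 0.43, 0.27 and 0.59 by their brightest probe sets. Second probe sets of Mrps14 and Cacybp gave -0.07 and 0.05 and were not called. On chromosome 1 Pvr, an adhesion molecule seen by natural killer cells, and the zinc finger genes Zfp180 and Zfp61 were lower by 0.86, 0.29 and 0.76, with Zfp111 between them not private. A second Zfp180 probe set gave -0.17 and was not called.

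Neighbours could also part. Lilrb2 (log2 1.47) and Pira2 (-1.47) lie in a cluster of related leukocyte receptors on chromosome 1, with no other tested gene between them. DA was above all other arrays in the first and below all in the second. Pla2g5 (-0.54) and Pla2g2a (0.93), both secreted phospholipases on chromosome 5, did the same, at 882 to 1010.2 and 4307 to 5329 in DA. So did Ly6c (-0.77) and Ly6al (0.69), surface proteins of blood cells on chromosome 7. In such families of copies a strain difference in sequence and one in level cannot be told apart.

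**Figure D4:**
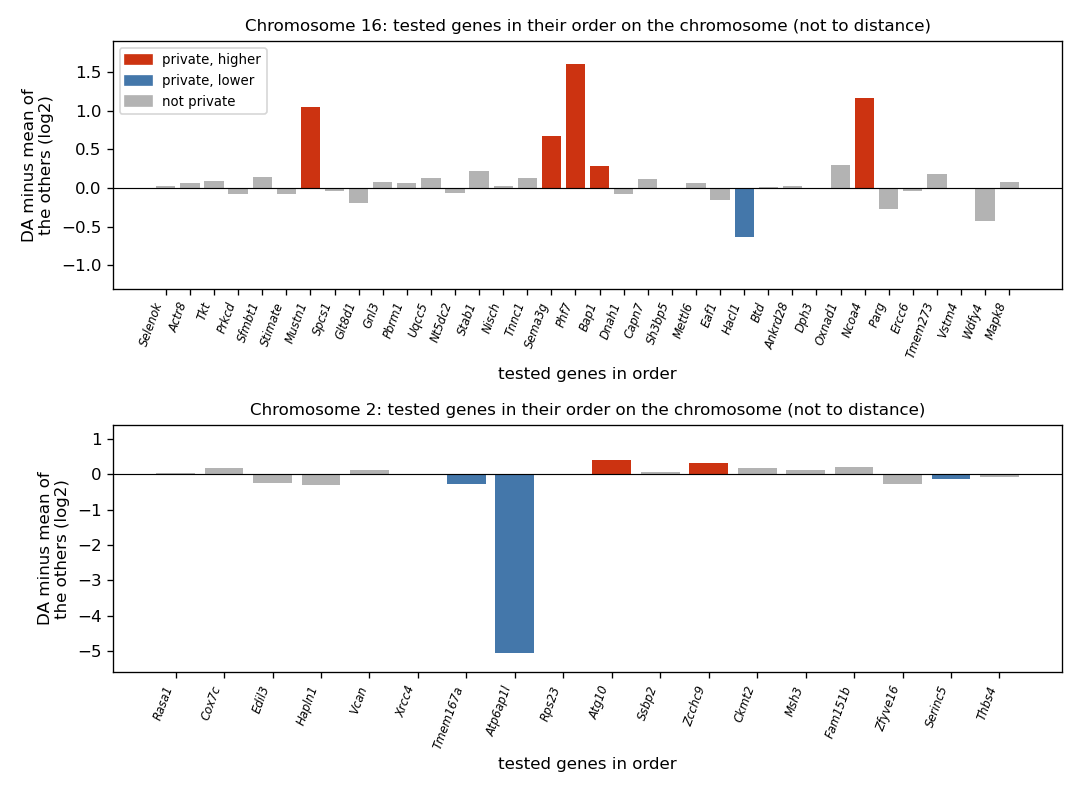
Bars give DA minus the mean of the others (log2) for tested genes in their order, without distance, around the runs on chromosomes 16 (top) and 2 (bottom); private genes are red where higher and blue where lower, the rest grey. Phf7 at 1.60 and Atp6ap1l at -5.04 stand out among neighbours that mostly sit near 0.

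Chromosome 4, the chromosome of the series, held 9 private genes of 606 tested (1.49%), and 70 of its genes were called (11.6%, against 12.2% overall). The lower ones were Bhlhe40, Rps4y2 and Vhl. Bhlhe40, a repressor that answers to hypoxia and the daily clock, read 289.6, 321, 286 and 299 in DA against 428, 583 and 766. All DA signals lay in a narrow band below the rest, with a difference of -0.95 (SE 0.11, adjusted p = 4.76e-06 by limma). Rps4y2, a member of the ribosomal protein S4 family with close copies elsewhere, read 334, 299, 425 and 433 and 558, 692 and 791 in the same order, a difference of -0.89 (SE 0.11, adjusted p = 6.50e-06 by limma). Vhl was lower by 0.15 and not called (limma adjusted p = 0.0808).

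The 6 genes higher on chromosome 4 were Tmem140, Nt5c3a, Rad52, Cd163, Cnot4 and Mrpl53. Tmem140, a membrane protein, read 1604, 1327, 1599 and 1238 in DA and 619.7 to 1211 elsewhere (log2 0.71, SE 0.11). Nt5c3a, which breaks down pyrimidine nucleotides in red cells, read 6345, 5908, 6824 and 6039.9 against 3025, 4546 and 5273 (log2 0.56, SE 0.066). Cd163, the macrophage receptor that clears haemoglobin, read 1562, 1516, 1586 and 1412 in DA. The other 3 strains lay within 0.07 of each other, at 879 to 1313, and the difference was 0.46 (SE 0.087, adjusted p = 0.000954 by limma). Rad52, a DNA repair protein, was higher by 0.55 (SE 0.082), and Cnot4 and Mrpl53 by 0.22 and 0.20.

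The 33 gene lists of cell types and pathways hold 1007 genes, of which 713 were tested. They were counted in DA minus the mean of the others, beside 6.34% of all genes called higher, 5.83% called lower and a median of 0.01 over all genes. A called member need not be private, because 1 outlying strain among the other 3 can move their mean. The lists were chosen with earlier results of these arrays known, so their counts are description.

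In the osteocyte list, of 8 members tested, Ankh, Phex, Pdpn, Mepe and Slc20a2 were called lower and Enpp1 higher, with a list median of -0.35, and 4 to 6 were called lower over all alternative settings, while Enpp1 lost its call without DA replicate 3 or 4. The list mean was -0.21 to -0.17 on the DA arrays and -0.16 to 0.25 on the others, which nearly touched, and the summed signal overlapped, at 34690 to 38790 in DA and 36890 to 51120 elsewhere. Ankh, which releases pyrophosphate and so restrains mineral, was the private member, at 1825, 1967, 1710.2 and 2038 in DA against 2143, 2592 and 3416, a difference of -0.49 (SE 0.068, adjusted p = 3.27e-05 by limma), while its second probe set gave -0.28 and overlapped. Phex, which controls phosphate, and Pdpn, an early osteocyte protein, were lower by 0.42 and 0.41 with overlapping arrays. Dmp1, a bright osteocyte marker on the list, was not called, at 14410 to 17960 in DA and 15610 to 20850 elsewhere. Mepe, a matrix protein of osteocytes that is also in the osteoblast list, was lower by 0.39. Of 18 osteoblast genes 5 were called lower, Dlx3, Mepe, Smpd3, Alpl and Phospho1, and none higher, and none was private. The number was 2 without DA replicate 2 and 3 without DA replicate 3 or 4, F344 replicate 2, 3 or 4, LEW replicate 2 or COP replicate 1 or 2. The osteoblast list median was -0.07, and 6 of the 18 genes lay above 0. Its list mean was -0.145 to -0.01 on the DA arrays and -0.132 to 0.222 on the others, which overlapped. Its summed signal was not lower in DA, at 400500 to 472200 against 388000 to 456400 elsewhere. Smpd3, an enzyme of sphingolipid breakdown needed for mineral, lost its call under 15 of 25 settings. The osteoclast list had Car2 higher and Mmp9 lower of 10, and leaving out 1 array gave up to 2 lower (DA replicate 1, LEW replicate 1, COP replicate 3 or 4). Both genes are counted in other lists too, Car2 in the erythroid list and Mmp9 in the neutrophil granule and protease lists.

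In the list of matrix proteases and their inhibitors, 8 of 29 members tested were called lower and 2 higher, 7 lay above 0 in the difference, with a median of -0.14 and between 6 and 9 called lower over the alternative settings. The summed signal of the list was 106000 to 114200 on the DA arrays and 119600 to 146800 on the others, and bright members such as Mmp13 and Mmp9 weigh heavily in it. Its private members were Mmp13 and Plat, named after their values were seen. Mmp13, the collagenase of growth plate and bone, read 24038, 24787, 22385 and 25913 in DA against 26825, 30473 and 34282 (log2 -0.33, SE 0.053), and Plat, the tissue plasminogen activator, 837 to 1102 against 1158 to 1461 (log2 -0.43, SE 0.075). Timp1, an inhibitor of these enzymes, was lower by 0.55 with DA replicate 4 inside the other range. Collagen processing genes gave 8 lower and 3 higher of 40, none private, and the 8 became 1 at an adjusted p under 0.01, 2 without DA replicate 2, 3 without DA replicate 3 and 5 without DA replicate 4 or F344 replicate 2. The 3 higher became 1 without DA replicate 2 or 4. Of the proteases called higher 1 was left without DA replicate 3 or 4.

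In the adipocyte list 6 of 18 were called higher and none lower, with a median of 0.19 and 4 to 7 called over the alternative settings. They were Scd, Cidea, Fasn, Adipoq, Plin1 and Acly, of which only Scd was private by its brightest probe set. Fasn, the fatty acid synthase, was higher by 0.52 (SE 0.069), with 1 F344 array above the lowest DA array. The list mean was 0.002 to 0.30 on the DA arrays and -0.50 to 0.26 on the others, so arrays overlapped. F344, at 0.18 to 0.24, was on the level of DA, and the low arrays were those of COP and 3 of LEW. Cidea, a protein of fat droplets, lost its call under 16 of 25 settings.

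In the erythroid list 9 of 28 were called higher and none lower, with a median of 0.17 and 6 to 13 called over the settings. Hba-a3, an alpha globin, was private, at 36452, 36653, 39706 and 42742 in DA and 5011, 11310 and 32720 elsewhere. LEW, with a mean of 31100, was close to DA, while F344 and COP had 8980 and 9363, so the log2 difference of 1.55 (SE 0.19) describes mainly those strains, and globin copies may share the probe set. Hemgn, a nuclear factor of blood progenitors, and Fech, the last enzyme of haem synthesis, were higher by 0.38 and 0.28 without being private. The erythroid list mean was 0.12 to 0.22 on the DA arrays, -0.01 to 0.29 in LEW and at most -0.09 in F344 and COP. Ncoa4, Nt5c3a and E2f2, described above, were higher on the same DA arrays. LEW had the lowest of the strain means for Nt5c3a (3460) and E2f2 (4077), and the highest after DA for Ncoa4 (12990). The part of red cell content in these genes was not tested.

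In the neutrophil granule list 9 of 19 were called higher and 4 lower, with a median of 0.14. Defa7 was its private extreme, and Chi3l1, a chitinase-like protein, was private too, at 4868, 5188, 5621 and 4683 in DA against 2713, 3397 and 4152 (log2 0.59, SE 0.058). The antimicrobial genes Camp, Np4, Defa5 and RatNP-3b were higher by 0.35, 0.30, 0.26 and 0.20 with overlapping arrays. Lcn2, a siderophore-binding protein, had a difference of -2.46 and was not private: DA at 963 to 1055 lay beside F344, with a mean of 834, and far below LEW and COP. The list mean, -0.04 to 0.13 in DA, lay inside the range of the others, -0.39 to 0.41.

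In the interferon list 4 of 28 were called higher and 5 lower, with a median of -0.02. The higher count was 2 without DA replicate 1 or 2, and the lower 3 without DA replicate 4. Its 3 private members parted. Ifit1 and Rsad2 were higher and Trim25 lower. Rsad2, the antiviral enzyme viperin, was bright in all strains, at 23706, 22846, 24869 and 22640 in DA against 16088, 19416 and 20226 (log2 0.33, SE 0.053). Trim25, a ubiquitin ligase that activates an RNA sensor, read 1349, 1756, 1656 and 1442 in DA. The others ran 2282 to 4129.7, and the difference was -1.09 (SE 0.073, adjusted p = 1.04e-09 by limma). Oas1a, Ifitm1, Rtp4 and Gbp2 were also lower, by 0.64, 0.54, 0.51 and 0.28, with overlapping arrays.

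The cell cycle list held 2 private members. Ttk, a kinase of the mitotic checkpoint, read 2581, 2664, 2673 and 2667 in DA, almost the same on 3 arrays, against 1117, 1840.5 and 2195 (log2 0.67, SE 0.077), and Mcm4, of the replication helicase, was higher by 0.25. In all, 6 of 39 were called higher, or 3 without DA replicate 2, and 2 lower. The endothelial, Wnt, mast cell and cytochrome P450 lists gave 1 private member each. Of 17 endothelial genes 3 were called higher, Cldn5, Pecam1 and Stab1, and 2 lower, Egfl7 and Plvap. With 1 array left out the higher endothelial count fell as low as 1. Egfl7, a secreted protein of endothelial cells, was lower by 0.35 (SE 0.068) in 1 probe set and by 0.10, not called, in the other. Nkd2, an inhibitor of Wnt signalling, was lower at 174 to 264 against 272 to 389 (log2 -0.61, SE 0.12). Ms4a2, a chain of the IgE receptor of mast cells and basophils, was higher by 0.37, and Cyp4b1, a cytochrome P450, by 0.62. The list of mast cells, basophils and eosinophils gave 4 higher and 2 lower of 15, the lower ones being Cpa3 and Mcpt8. The Wnt list gave 1 higher and 3 lower of 32, and the list of cytochromes P450 3 higher and 5 lower of 22.

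Several lists held no private gene. The MHC class I list had 4 higher and 3 lower of 18, and neither it nor the class II list had a member private to DA. RT1-Db1, a class II chain, gave 0.32 in its brightest probe set and -1.76 in the other. In that other probe set DA, at 33.4 to 122.9, lay within the range of COP, 18.8 to 137.7, and below F344 and LEW. The genes studied in rat arthritis and encephalomyelitis crosses gave 2 called of 14. Of the 33 lists, 27 had a count that changed by over 1.5 times when 1 array was left out, so the lists not described here are shown only in the plot of list shares. For instance, the number of oxidative phosphorylation genes called higher was 2 of 60, and 8 without LEW replicate 1, and that of ribosomal protein genes 2 of 36, and 6 without DA replicate 1. Under quantile normalization 0 ribosomal protein genes were called higher and 2 lower. Tnfsf11, the ligand that drives osteoclast formation, was lower by 0.52 in DA at 128 to 187 against 184 to 355, and lost its call under 12 of 24 alternative settings. On DA replicate 1 the means of the B cell list (-0.27) and the T and natural killer list (-0.32) were below those of the other 3 DA arrays.

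**Figure D5:**
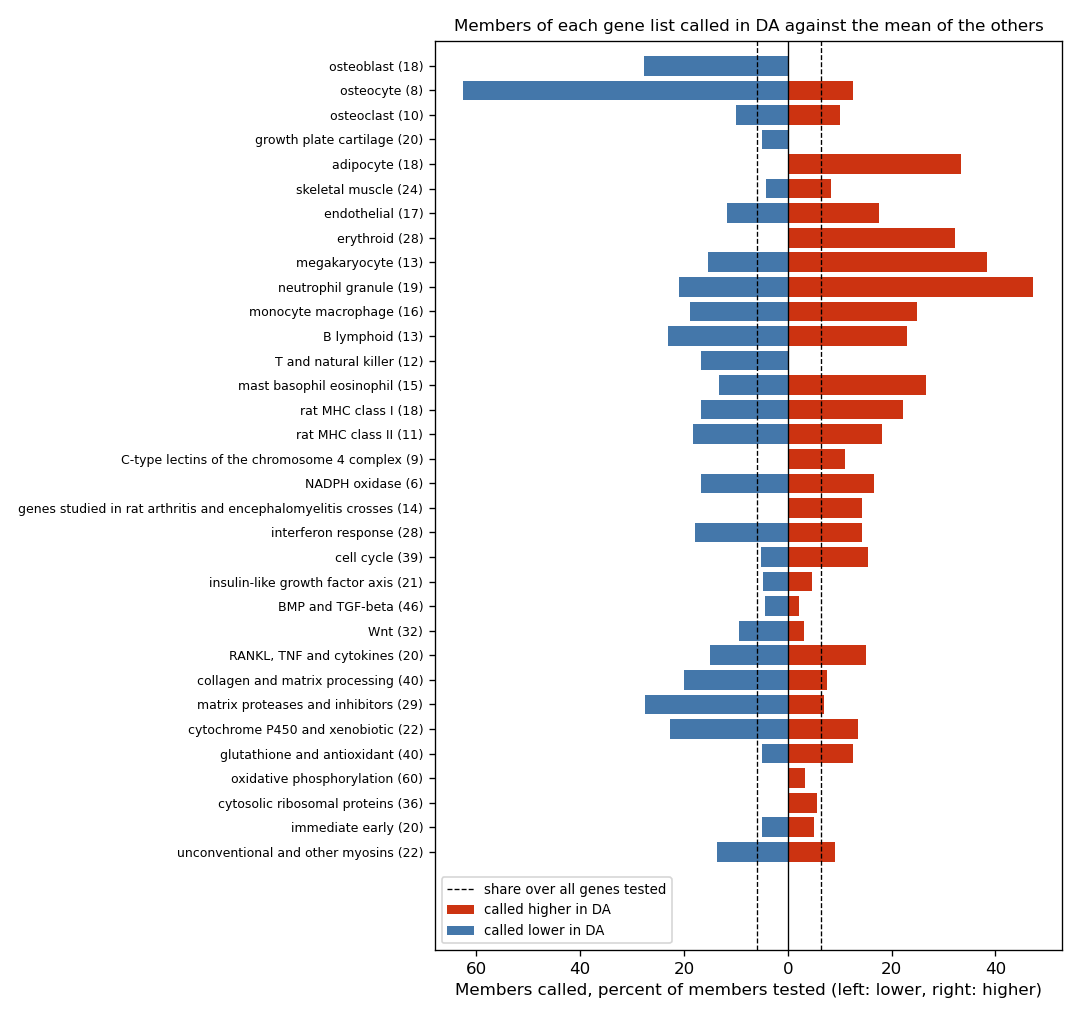
Bars give the share of each list's tested members (number in brackets) called higher (right, red) or lower (left, blue) in DA minus the mean of the others, and dashed lines mark the shares over all genes tested, 6.34% and 5.83%. The osteocyte list reaches farthest left with 5 of 8, the neutrophil granule list farthest right with 9 of 19, and small lists move by large steps.

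The naming rule reached 54 of the 233 private genes. The other 179, 95 higher and 84 lower, had absolute log2 differences from 0.11 to 1.74 with a median of 0.40. Some that encode immune proteins are given here, picked after their values were seen. Itgal, the alpha chain of the leukocyte integrin LFA-1, read 1261, 1214, 1505 and 1317 in DA. The others ran 78 to 1144, with strain means of 793 in F344, 103 in LEW and 923 in COP, so its difference of 1.66 (SE 0.12, adjusted p = 4.58e-09 by limma) overstates the distance to the nearest array. Lbp, which binds bacterial endotoxin, was lower at 1388, 1230.3, 1249.8 and 1241 against 1633, 2869 and 4369.5, a difference of -1.11 (SE 0.06, adjusted p = 3.84e-11 by limma). Ccr1, a chemokine receptor of myeloid cells, was higher at 1386 to 1508 against 763 to 1122 (log2 0.60, SE 0.088). Il10ra, a receptor chain for interleukin-10, was higher by 0.48 and Vcam1, an adhesion molecule, by 0.21. Ifnar2, a receptor chain for type I interferon, was higher by 0.31 in its brightest probe set, and its other gave -0.04 and was not called. Ctsc, a protease that activates granule enzymes, was lower by 0.34.

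Others bear on matrix and signalling. P4ha3, a subunit of the enzyme that hydroxylates collagen proline, read 2432, 2585, 2394 and 2261 in DA against 605, 950.5 and 2241. Its highest other array, 2241, came close to DA, and the difference was 1.10 (SE 0.088, adjusted p = 1.71e-08 by limma). Rcan1, an inhibitor of calcineurin, was lower at 1669.5 to 2127 against 2275 to 4230.1 (log2 -0.78, SE 0.075). Hdac4, a deacetylase that restrains chondrocyte maturation, was lower at 214 to 300.4 against 345 to 523 (log2 -0.74, SE 0.12), and Bmp2k, a kinase induced by a bone morphogenetic protein, was higher at 5661 to 7107 against 2294 to 5536 (log2 0.66, SE 0.068), although its second probe set gave 0.29 and was not called. Glb1, the lysosomal beta-galactosidase, was lower by 0.56 with a gap between 3440.5 and 4221. Among the 12 private genes that were not called was Eloa, a transcription elongation factor with the smallest difference of all, 0.11, at 2241 to 2308 in DA and 1977 to 2231 elsewhere.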

How the data were processed

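The 16 arrays were grouped by the strain in their titles. The deposited intensity values, 1 linear signal per probe set and array, were made by the authors with MAS5, per the submitters' processing notes. For its version, scaling target and detection calls nothing is given in the sources used here. A 2% trimmed mean came to 1000.3 on every array, so scaling had been done before deposit. Control probe sets (57 of 31099) were left out. Names came from the platform annotation (20826 with 1 symbol, 436 with several, 9780 with none); 20758 matched RefSeq genes of assembly GRCr8, which gave gene order. Promoters came from RefSeq, with a window for 198 of the 233 private genes.

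Signals under 1 were set to 1 (255 values) and log2 was taken. Probe sets with a mean under the 40th percentile were left out. A gene was represented by its brightest kept probe set. A model with a mean for each strain was fitted by limma 3.58.1 (R 4.3.3), with an intensity trend, 12 residual degrees of freedom and two-sided p-values adjusted by Benjamini-Hochberg. The code was checked on simulated data. Members and gene lists were chosen with earlier results of these data known.

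Named were the 14 private called genes in each direction with the largest difference to the nearest strain, up to 6 on chromosome 4, up to 3 called members per list, members of runs and genes under the filter only in DA; 2 genes numbered as loci were skipped. Further private genes and list members were named after their values were seen. Alternatives were quantile normalization, median centring, a pseudocount of 19.3, no filter or the 60th percentile, no trend, robust moderation, a replicate block, a threshold of 0.01, a gap of 0.5, the mean of probe sets, and leaving out each array. Replicate numbers did not pair arrays: 24 correlations of deviations between same-numbered arrays ran from -0.173 to 0.0875.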

Additional observations from a re-analysis of the deposited data

Results flagged for a closer look

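For the named genes, each strain's 4 arrays were searched for an array whose gap to the nearest other took most of the range of the 4. A narrow group can meet this with a small difference, as Ttk does in DA. Of 500 groups, 28 held such an array, where chance alone gives about 1 in 20, or 25. Within DA the signal stood apart below the other 3 arrays, by a gap large beside the range of the 4, for Mustn1 in DA replicate 2 (7351), Mepe in DA replicate 1 (4828), Col11a2 in DA replicate 3 (6766), RT1-DMb in DA replicate 1 (1047), Ttk in DA replicate 1 (2581) and Mmp12 in DA replicate 3 (112). It stood apart above them for Egfl7 in DA replicate 2 (1339), Tubb1 in DA replicate 3 (3676), Rpl6 in DA replicate 4 (52390) and Rabgap1l in DA replicate 3 (1010). In the other strains an array stood low for Sco1 in COP replicate 1 (691), Atp6ap1l in COP replicate 1 (755), Nhlrc3 in COP replicate 3 (1528), Ankh in LEW replicate 1 (2184), Trim25 in F344 replicate 1 (2282), Ttk in LEW replicate 4 (1508), Hmox1 in COP replicate 3 (1842), Ndufs4 in LEW replicate 4 (1999) and Rps3 in COP replicate 3 (36860). An array stood high for Defa7 in F344 replicate 1 (464), Dlx3 in LEW replicate 4 (1521), Tnnc2 in LEW replicate 1 (48280), F2rl2 in LEW replicate 3 (382), Ccr2 in COP replicate 3 (606), Il1b in F344 replicate 3 (542), Rpl6 in LEW replicate 1 (42010), Klf4 in COP replicate 4 (3816) and Cacybp in COP replicate 2 (5369). The DA arrays concerned were replicate 1 for Mepe, RT1-DMb and Ttk, replicate 2 for Mustn1 and Egfl7, replicate 3 for Col11a2, Tubb1, Mmp12 and Rabgap1l, and replicate 4 for Rpl6. The values of Mustn1, Egfl7, Ttk and Rabgap1l still left DA private.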

How the results depend on the processing

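Counts are private probe sets (207 higher, 223 lower), private genes (124, 109), called probe sets (1131, 1137) and private probe sets called against each strain (125, 153). Among alternative values 179 were within 1.5 times the main one and 15 were not. With an adjusted p under 0.01 the called counts were 624 and 548 and the last count was 72 higher. A gap of at least 0.5 left 18 and 27 private probe sets and 11 and 6 genes. With replicate number as a block, which did not pair the arrays, private probe sets numbered 312 and 338 and lower private genes 180; 4 of 16 arrays correlated best with their own number. Leaving out 1 array gave 217 to 369 and 231 to 374 private probe sets, 129 to 217 and 110 to 200 private genes, 821 to 1301 and 830 to 1310 called, and 108 to 130 and 138 to 178 called against each strain. The highest private counts were those without DA replicate 1, and a rule over 3 arrays is easier to meet by its construction. Of the 430 private probe sets, 394 stayed private under quantile normalization, 379 under median centring and 392 under the block. No named gene changed direction: 2877 alternative values kept their call and 222 lost it, most often for Myh4, RT1-DMb, Tnnc2, Cidea, Smpd3, Tcf7, Ltbp1 and Ndufs8. The list counts moved by over 1.5 times in 284 cases and stayed within it in 1366. The number of arrays, 4 a strain, limits the precision.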

Other observations

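Private probe sets without a gene symbol numbered 103, and 11 had several. The largest were chosen after their values were seen. Probe set 1392392_at read 2.69 to 8.25 in DA and 686 to 878 elsewhere, a log2 difference of -7.37 (SE 0.19), and 1375815_at read 6.65 to 50.8 against 431 to 1035, a difference of -5.15 (SE 0.36). These DA signals are dim, and the size of such differences depends on how dim signals are treated. Higher in DA were 1395260_at, at 626 to 903 against 13.7 to 360 (2.41, SE 0.57), and 1395193_at, at 436 to 795 against 117 to 229 (1.98, SE 0.19). Among genes with a dim signal, Cd209f, a C-type lectin receptor, read 322 to 433 in DA and 62.6 to 298 elsewhere (1.36, SE 0.20).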
